A study of Mus musculus with 15 samples.

Results

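The genes of oxidative phosphorylation were examined in P14 CD8+ T cells, as the rows of 2 expression tables whose symbol starts with Nduf, Sdha, Sdhb, Sdhc, Sdhd, Uqcr, Cox4, Cox5, Cox6, Cox7, Cox8 or Atp5. This rule found 85 of the 11836 genes in either table, 83 of 11262 in the table of naïve and activated cells and 85 of 11211 in the table of cytotoxic T lymphocytes (CTL), with 83 genes in both. By respiratory complex these are 39 genes of complex I, 6 of complex II, 8 of complex III, 14 of complex IV and 17 of complex V, and 75 of the 85 encode structural subunits. The other 10 rows are the assembly factors Ndufaf1, Ndufaf2, Ndufaf3, Ndufaf4, Sdhaf1, Sdhaf2 and Atp5sl, the coupling factor Atp5s, the supercomplex factor Cox7a2l, and Cox4nb, a subunit of an endoplasmic reticulum complex that shares only the start of its symbol and was put in no complex. Subunits encoded by mitochondrial DNA were not analysed here, so every value belongs to a nuclear gene.

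The study asked how antigen receptor, PI3K p110δ and IL-2 signals set the mRNA of CD8+ T cells. All cells came from P14 mice, whose transgenic TCR binds the gp33–41 peptide of lymphocytic choriomeningitis virus. For the naïve and activated cells the methods give female mice aged 9 to 13 weeks. They do not name the CTL with and without IL-2 used here. In the first table, lymph node cells pooled from 3 mice were divided between sorted naïve cells, cells activated for 24 h (TCR) with the peptide (100 ng/ml), IL-12 (2 ng/ml) and IL-2 (20 ng/ml), and cells activated in the same mixture with 10 µM of the p110δ inhibitor IC87114 (PI3Kdi, written PI3Kδi in the plots), and both activated groups were sorted as live CD8+ cells. In the second table, CTL had been activated for 48 h, kept in IL-2 for 4 further days and, on day 6, left for 24 h either in IL-2 (20 ng/ml) or without it, with no sort described. Each of the 5 groups has 3 biological replicates. The treatment label of CTL replicates 2 and 3 with IL-2 names another interleukin, and they were grouped by their titles. All CTL had thus been activated and kept in IL-2 before the withdrawal, and the naïve cells were the only group not cultured.

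Oxidative phosphorylation takes place in the inner mitochondrial membrane. Complexes I and II pass electrons from NADH and succinate to ubiquinone, complex III passes them on to cytochrome c, and complex IV passes them to oxygen. Complexes I, III and IV pump protons as they do so, and complex V, the ATP synthase, makes ATP as the protons return. Resting naïve T cells divide little and rely on this pathway for ATP, while activated T cells grow, enlarge their mitochondria and take up more glucose.

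Values are FPKM (fragments scaled by exon length and by library size), so that levels of different genes can be set side by side within a table. The 2 tables were normalised separately, and levels are compared by test only within one. The number of reads per library is unknown. The summed FPKM of a library ran from 438119 to 488408 in the first table and from 446551 to 502972 in the second. All 6 CD8 T cell markers were present in both tables, with sums of 4142 to 4537 FPKM among naïve libraries, 1071 to 1271 among TCR libraries, 1101 to 1255 among PI3Kdi libraries, 2038 to 2336 in CTL with IL-2 and 2744 to 2883 without. Of 5 B cell markers, 4 were in the first table, summing to 20.9 to 26.3 FPKM among naïve, 4.63 to 7.12 among TCR and 3.3 to 4.58 among PI3Kdi libraries, and 1 (Cd79b) in the second, at 2.74 to 6.3 FPKM with IL-2 and 10.8 to 20.6 without. Of 5 myeloid markers Itgam alone was present, at 0 to 0.3 FPKM in the first table, 0.2 to 0.39 in CTL with IL-2 and 3.89 to 4.46 without. Of Cd4 and Foxp3, 1 was in each table, at 0.05 to 1.92 FPKM, Klrb1c of 2 NK cell markers was in the CTL table alone, at 1.2 to 1.88 FPKM with and 2.17 to 3.41 without IL-2, and no erythroid or platelet marker of 5 was present. Their part in the results below was not tested.

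Among the structural subunits, 2 libraries stood apart from the other replicates of their groups in the same genes. The deviation of naïve replicate 3 from the naïve mean and that of TCR replicate 1 from the TCR mean had a Pearson r of 0.92 over 73 subunits, against 0.38 over 10072 genes with a mean of at least 1 FPKM. This is a description across genes, which are not independent replicates. Over the subunits the r between the other naïve and TCR libraries ran from 0.567 to 0.775. Deviations from a group mean cancel out within the group, so these values are not independent of the r of 0.92. Naïve replicate 3 held the lowest naïve value for 41 of the 73 subunits and TCR replicate 1 the lowest TCR value for 50. Over the same subunits the deviation had an r of 0.32 and 0.34 with the GC content of the transcript in these libraries. It was 0.325 and 0.328 over 9075 genes, so this was not particular to the subunits. In the other naïve and TCR libraries the r over the subunits ran from -0.423 to -0.203, and the opposite sign follows in part from the same centring on the group mean. The part of GC content in the deviation was not tested. The lowest points were Ndufc1, an accessory subunit of complex I, at 14.4 FPKM in naïve replicate 3 against 27.0 and 36.1 in the other naïve libraries, and Atp5e, the epsilon subunit of the ATP synthase, at 109 against 188 and 254. In TCR replicate 1 the same genes were at 27.1 FPKM against 54.7 and 54.2, and at 112 against 201 and 223. In CTL with IL-2 the corresponding r was -0.36 in replicate 1 and 0.43 in replicate 2. In level, naïve replicate 2 was the one apart, with the highest naïve value for 60 of the 73 subunits and a median deviation of 0.18, beside -0.04 in replicate 1, which was lowest for 31, and -0.10 in replicate 3. Counts for the genes as a whole, by complex and by list are also given with naïve replicate 3 and TCR replicate 1 left out.

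**Figure D1:**
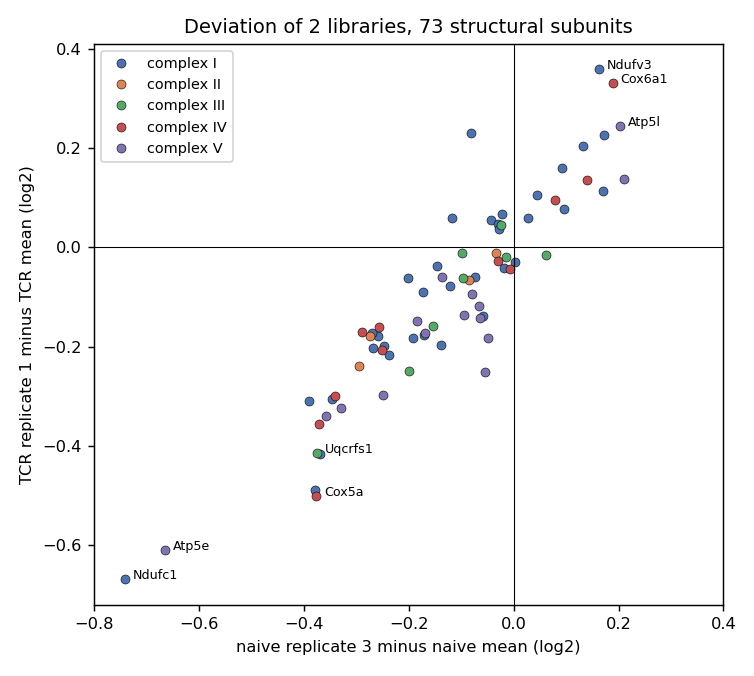
Each point is 1 of 73 structural subunits, coloured by complex, with the log2 deviation of naïve replicate 3 from the naïve mean on the horizontal axis and that of TCR replicate 1 from the TCR mean on the vertical axis. The points lie along a rising line (r = 0.92), with Ndufc1 and Atp5e at the lower left.

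The summed subunit mRNA was higher in activated than in naïve cells, and lower in CTL without IL-2 than with it. Summed over the structural subunits, the FPKM of the naïve libraries was 7248 ± 805 (SD, n = 3), which is 1.58% ± 0.116 of all FPKM in the table. After TCR activation the sum was 11294 ± 791 (2.36% ± 0.115), and with PI3Kdi it was 10847 ± 151 (2.4% ± 0.0123). CTL with IL-2 had 10650.0 ± 171 (2.16% ± 0.0841) and CTL without IL-2 7424 ± 220.0 (1.65% ± 0.0418). The shares of the 3 naïve libraries (1.48% to 1.71%) lay below all 6 activated libraries (2.23% to 2.46%), and those of CTL without IL-2 (1.62% to 1.69%) lay below those with IL-2 (2.09% to 2.26%). These sums are descriptions with no test, because the genes were chosen with results known. In bulk RNA, fewer cells of a type and less of an mRNA per cell cannot be told apart. FPKM is also scaled by library size and gives no count per cell, so a gene with a lower value may not be lower per cell.

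Complex V held the largest sum in every group. Its genes summed to 2373 ± 292 FPKM in naïve, 4082 ± 429 in TCR and 3969.8 ± 86 in PI3Kdi libraries, and to 3716 ± 66.9 in CTL with IL-2 and 2364 ± 86.1 without (SD, n = 3 each). Complex II held the smallest sum, at 325 ± 31.1 in naïve and 498 ± 33.3 in TCR activated cells. The ratio of TCR activated to naïve sums was 1.34 for complex I, 1.53 for complex II, 1.64 for complex III, 1.34 for complex IV and 1.72 for complex V. Left to structural subunits, the ratio for complex IV was 1.56, since Cox7a2l, which fell, is then not counted. The ratio of sums without to with IL-2 was 0.744, 0.748, 0.767, 0.765 and 0.636 for complexes I to V, and with the libraries scaled to equal summed FPKM these were 0.812, 0.817, 0.837, 0.835 and 0.694.

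**Figure D2:**
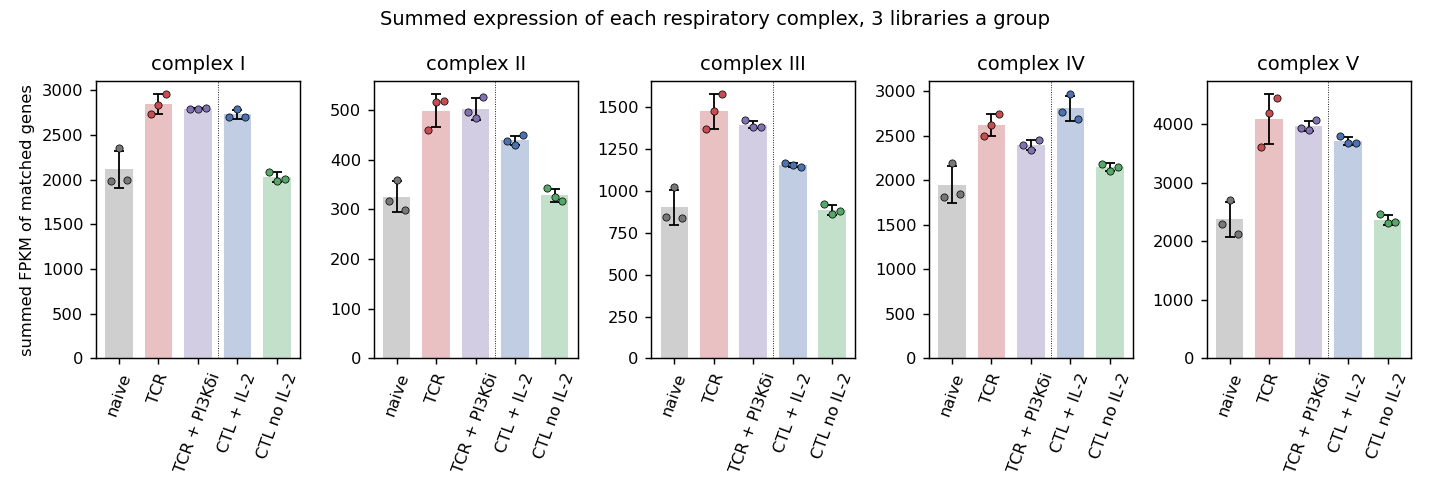
Summed FPKM of the matched genes of each respiratory complex, with 1 point a library, bars at the group mean and error bars of 1 SD (n = 3); the dotted line parts the 2 separately normalised tables. In each complex the 3 TCR libraries sit above the 3 naïve ones, and the 3 CTL libraries without IL-2 sit below the 3 with IL-2.

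Which subunit genes change when naïve cells are activated? Calls were made by limma on log2(FPKM + 0.1) over all genes of the table and needed both a fold above 2 or below 0.5 and an adjusted p under 0.05, and a second count left out the fold limit, since subunit mRNA can move together by less than 2-fold. With the fold limit 21 of 83 genes were higher in TCR activated cells, against 25% of all 11262 genes, and 3 were lower, against 23.7%. Without the fold limit 56 were higher, against 40.9% of all genes, and 9 were lower, against 39.8%, while 18 did not pass. The share of members higher by over 2-fold (25.3%) was near the background of that direction, and the share lower by over 2-fold (3.61%) was below it. Without the fold limit the share that rose (67.5%) was above the background and the share that fell (10.8%) below it. The median log2 fold change of the members was 0.58, beside 0.0054 for all genes. Without naïve replicate 3 and TCR replicate 1, 20 members were higher and 3 lower past the fold limit, and 59 and 9 without it. Over all 11262 genes that fit gave 2808 higher and 2710 lower past the fold limit, and 40.5% and 39.3% without it. By complex the counts higher and lower without the fold limit were then 26 and 6 for complex I, 3 and 0 for complex II, 7 and 1 for complex III, 10 and 1 for complex IV and 12 and 1 for complex V. The core subunits of complex I had 6 and 0, the accessory subunits 17 and 5.

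Complex I had the widest range of values. Of its 39 genes, 25 rose and 6 fell without the fold limit, with a median log2 fold change of 0.47. The 7 core subunits, which carry electrons from NADH to ubiquinone, rose by less than 2-fold where they passed, as 6 of them did. Ndufv1, the core subunit that binds the flavin at the NADH site, was at 52.9, 54.6 and 46.5 FPKM in the 3 naïve libraries and 63.6, 75.7 and 80.7 in the 3 TCR libraries. Every TCR library was above every naïve one, and the log2 fold change was 0.51 ± 0.10 SE, adjusted p = 6.6e-04.

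The 28 accessory subunits of complex I, which surround the core without carrying electrons, spread further, from -0.70 to 1.77, with 16 higher and 5 lower. The largest rise among them was that of Ndufab1, the mitochondrial acyl carrier protein, which is also part of complex I. Its FPKM was 16, 17.6 and 12.7 in naïve and 45.5, 57.3 and 55.2 in TCR activated libraries, and all TCR values were over those of naïve cells (log2 fold change 1.77 ± 0.13 SE, adjusted p = 1.6e-07, 3.42-fold). Ndufa12, an accessory subunit of the peripheral arm, was at 36.7, 47 and 49.6 FPKM in naïve libraries and 151, 125 and 144 in TCR libraries. The groups were apart again, with a log2 fold change of 1.66 ± 0.12 SE, adjusted p = 1.2e-07. About 22% of the stretches of read length (75 bases) in its longest transcript also occur in the annotated gene Gm15920, so that part of its count is uncertain. Shared stretches of 20% or more were also found in Atp5l, Atp5h, Ndufb4 (35.2%), Uqcrb (29.1%), Ndufs3 (27.1%), Atp5o (27.1%), Cox7c and Ndufb9 (20.3%), for which the same holds. Ndufa3, which sits in the membrane arm, was the most abundant complex I mRNA of naïve cells by mean and went down, from 155, 189.7 and 166 FPKM in naïve libraries to 142, 133 and 137 after activation. Its groups did not overlap, yet the log2 fold change was small (-0.31 ± 0.08 SE, adjusted p = 0.0058) and lost significance without replicate 2 (-0.20, adjusted p = 0.112).

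The other risers of complex I beyond 2-fold were Ndufb8 (1.10 ± 0.12 SE, adjusted p = 4.7e-06), Ndufb6 (1.36 ± 0.19 SE, adjusted p = 4.0e-05), Ndufa5 (1.36 ± 0.10 SE, adjusted p = 2.0e-07) and Ndufc2 (1.38 ± 0.11 SE, adjusted p = 2.5e-07), all accessory subunits. Cox4nb, which is not part of the chain, also rose (1.07 ± 0.10 SE, adjusted p = 1.4e-06).

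The assembly factors of complex I, which build the complex and leave it, moved in both directions. Ndufaf2 was at 5.44, 8.13 and 8.64 FPKM in naïve libraries and 47.2, 41.2 and 40.0 after activation. This was the largest rise of all 83 members, 2.54 ± 0.15 SE, adjusted p = 3.1e-08, or 5.82-fold. Ndufaf4 (1.70 ± 0.15 SE, adjusted p = 7.6e-07) and Ndufaf1 (1.01 ± 0.14 SE, adjusted p = 3.2e-05) rose too. Ndufaf3 went the other way, from 10.5, 13 and 10.9 to 3.81, 3.98 and 4.9 FPKM, with no overlap between groups and a log2 fold change of -1.42 ± 0.14 SE, adjusted p = 1.9e-06.

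In complex II, the 4 subunits of succinate dehydrogenase did not move alike. Sdhd, a membrane anchor, was at 53.8, 64.9 and 43.5 FPKM in naïve libraries and 124, 163 and 155 in TCR libraries, and Sdhb, the iron–sulphur subunit, at 65, 76.3 and 68 and 119, 117 and 125. Both were higher in every TCR library, by 1.45 ± 0.14 SE, adjusted p = 2.4e-06 for Sdhd and 0.79 ± 0.08 SE, adjusted p = 3.4e-06 for Sdhb on the log2 scale. Sdha, the flavoprotein, and Sdhc, the other anchor, did not pass (log2 fold changes 0.15 ± 0.07 SE, adjusted p = 0.0783 and 0.16 ± 0.13 SE, adjusted p = 0.287). Sdha passed with median scaling, at 0.23 (adjusted p = 0.0121). Of the assembly factors, Sdhaf1, which serves the iron–sulphur subunit, rose by 0.76 ± 0.13 SE, adjusted p = 1.6e-04, and Sdhaf2, which serves the flavoprotein, did not pass (0.01 ± 0.10 SE, adjusted p = 0.94).

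Complex III had the highest median among the 5 complexes, 1.18, with 7 of its 8 genes higher. Uqcrfs1, the Rieske iron–sulphur protein, was at 48.2, 66.7 and 38.4 FPKM in naïve libraries and 109, 171 and 164 in TCR libraries. All TCR values were above the naïve ones, with TCR replicate 1 well below the other 2, and the log2 fold change was 1.54 ± 0.20 SE, adjusted p = 2.4e-05. Uqcrq, a small membrane subunit, went from 75.7, 85.6 and 72.6 to 219, 216 and 226 FPKM (1.5 ± 0.09 SE, adjusted p = 3.7e-08), with replicates close together in both groups. Uqcrb (1.13 ± 0.07 SE, adjusted p = 3.6e-08) and Uqcr10 (1.37 ± 0.14 SE, adjusted p = 3.1e-06), other small subunits, rose past the fold limit as well. The core proteins rose by less, Uqcrc1 by 0.76 ± 0.08 SE, adjusted p = 3.6e-06 and Uqcrc2 by 0.58 ± 0.10 SE, adjusted p = 2.1e-04. The exception was Uqcrh, the acidic hinge protein that docks cytochrome c. It was the most abundant complex III mRNA, at 309, 399 and 317 FPKM in naïve libraries, and was lower in all TCR libraries, at 226, 231 and 251 (-0.53 ± 0.10 SE, adjusted p = 5.5e-04).

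In complex IV 8 of 12 genes rose and 1 fell. Cox5a, a subunit on the matrix side, was at 94.3, 110.1 and 68.9 FPKM in naïve libraries and 158, 257 and 275 in TCR libraries, with TCR replicate 1 far under the others and all 3 above the naïve ones (1.32 ± 0.21 SE, adjusted p = 1.1e-04). Cox7c, a small membrane subunit, went from 76.5, 90.0 and 82.4 to 172, 180.0 and 179 FPKM with tight replicates (1.09 ± 0.08 SE, adjusted p = 1.4e-07). Of its read-length stretches 25% are shared with annotated copies elsewhere. Cox6b1 and Cox4i1 were the most abundant in TCR activated cells, with means of 331 and 329 FPKM, and Cox6b1 passed (0.76 ± 0.08 SE, adjusted p = 5.5e-06) where Cox4i1 did not (0.23 ± 0.14 SE, adjusted p = 0.139). Ndufa4, named for complex I and now counted in complex IV, rose by 0.82 ± 0.17 SE, adjusted p = 9.4e-04. Cox6a1 (0.33 ± 0.14 SE, adjusted p = 0.0541) and Cox6c (0.35 ± 0.16 SE, adjusted p = 0.0599) did not pass with all libraries, and both passed without naïve replicate 3 and TCR replicate 1 (0.26, adjusted p = 0.0385, and 0.33, adjusted p = 0.0062) and with median scaling.

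Of 17 genes grouped with complex V by their symbols 12 rose and 1 fell, the assembly factor Atp5sl, which is no part of the enzyme. Of the 15 subunits 12 rose and none fell, 4 of 5 in the F1 head and central stalk and 8 of 10 in the outer stalk and membrane part. Atp5b, the catalytic beta subunit and the most abundant member of the first table in every group, was at 395, 466 and 359.8 FPKM in naïve libraries and 838, 992 and 1015 in TCR libraries. Every TCR value exceeded every naïve one, for a log2 fold change of 1.22 ± 0.11 SE, adjusted p = 1.4e-06. Atp5a1, the alpha subunit that forms the head of the enzyme with it, rose by 0.86 ± 0.10 SE, adjusted p = 6.3e-06. The 3 genes Atp5g1, Atp5g2 and Atp5g3 encode the same mature c subunit of the rotor ring with different import signals. Atp5g3 was at 167, 184 and 135 FPKM in naïve and 346, 442 and 503 in TCR libraries, and Atp5g1 at 65.8, 82.1 and 69.9 and 154, 173 and 200.3. Neither pair of groups overlapped, and the rises were 1.40 ± 0.14 SE, adjusted p = 2.9e-06 and 1.27 ± 0.11 SE, adjusted p = 8.9e-07, beside 0.60 ± 0.09 SE, adjusted p = 6.3e-05 for Atp5g2. Atp5h, a stalk subunit, and Atp5e, the epsilon subunit of the central stalk, were the lowest of the subunits, at -0.11 ± 0.09 SE, adjusted p = 0.295 and -0.02 ± 0.29 SE, adjusted p = 0.964. Atp5l (0.16 ± 0.13 SE, adjusted p = 0.28) and the coupling factor Atp5s (0.11 ± 0.20 SE, adjusted p = 0.633) did not pass either. Atp5d, the delta subunit of the central stalk, rose (0.87 ± 0.11 SE, adjusted p = 2.0e-05). Atp5h passed as lower with libraries scaled to equal summed FPKM (-0.18, adjusted p = 0.0455). For Atp5e naïve replicate 3 and TCR replicate 1 lay far below the rest, and 36.5% of the read-length stretches of Atp5h occur in another annotated gene.

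**Figure D3:**
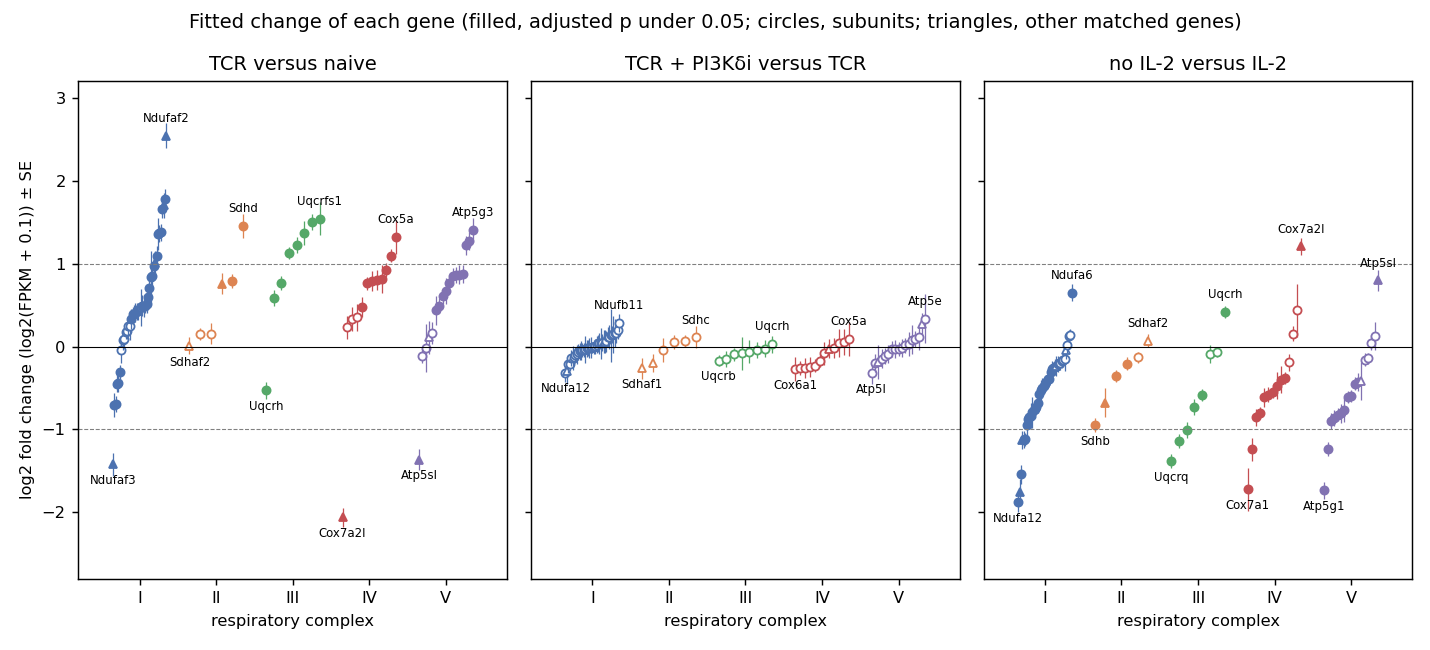
Fitted log2 fold change ± SE of each gene by respiratory complex in the 3 comparisons, sorted within a complex, with filled points at an adjusted p under 0.05, triangles for rows that are no structural subunit and dashed lines at 2-fold. Most points lie above 0 after TCR activation and below 0 without IL-2, and none is filled for PI3Kdi.

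The genes that went against the rest after activation were 9 in number. They were the accessory subunits Ndufv3, Ndufa6, Ndufa13, Ndufb11 and Ndufa3, the hinge protein Uqcrh, and 3 rows that are no structural subunit, Cox7a2l, Ndufaf3 and Atp5sl, which alone fell by more than 2-fold. Cox7a2l, a protein that joins complexes III and IV into supercomplexes, was at 277, 362 and 335 FPKM in naïve libraries and 83.2, 70.9 and 78.1 in TCR libraries. By mean it was the highest of the complex IV genes in naïve cells, and all TCR values lay far below (-2.06 ± 0.11 SE, adjusted p = 1.5e-08, 0.24-fold). Ndufa6, an accessory subunit that holds the acyl carrier protein, went from 103, 130.1 and 121 to 78.2, 72.7 and 67.4 FPKM (-0.70 ± 0.10 SE, adjusted p = 4.9e-05). Ndufv3, a small subunit by the NADH site, went from 34.7, 38.6 and 43.4 to 30.5, 21.9 and 20.2 (-0.70 ± 0.14 SE, adjusted p = 7.9e-04). Ndufb11, of the membrane arm, fell by 0.44 ± 0.11 SE, adjusted p = 0.00233, and without replicate 2 it did not pass (-0.27, adjusted p = 0.063). Atp5sl, named for its likeness to the coupling factor Atp5s and now known as an assembly factor of the membrane arm of complex I, was at 20.4, 21.9 and 25.9 FPKM and then 10.2, 8.09 and 8.09 (-1.36 ± 0.13 SE, adjusted p = 1.3e-06).

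To set genes that rose beside genes that fell, 4 promoters are printed, 2 of each kind, as RefSeq gives them for GRCm38.p6, a patch release of the mm10 assembly. Each runs from 250 bases before to 50 bases after the transcription start, 5′ to 3′ on the strand of the gene. Capitals mark the motifs searched on both strands: CGCATGCG for NRF1, CCGGAAG for ETS factors such as GABP, AAGATGGC for YY1 and CACGTG, the E-box. Uqcr11, a small subunit of complex III (1.23 ± 0.10 SE, adjusted p = 4.8e-07 after TCR activation), lies at chr10:80406772-80407071 on the minus strand and holds an ETS and an NRF1 match. Atp5g1, described above, lies at chr11:96075582-96075881 on the minus strand with an E-box. Uqcrh lies at chr4:116075021-116075320 on the minus strand with an ETS match, read on the other strand as CTTCCGG. Cox7a2l lies at chr17:83514284-83514583 on the minus strand and holds none of the 4.
Uqcr11: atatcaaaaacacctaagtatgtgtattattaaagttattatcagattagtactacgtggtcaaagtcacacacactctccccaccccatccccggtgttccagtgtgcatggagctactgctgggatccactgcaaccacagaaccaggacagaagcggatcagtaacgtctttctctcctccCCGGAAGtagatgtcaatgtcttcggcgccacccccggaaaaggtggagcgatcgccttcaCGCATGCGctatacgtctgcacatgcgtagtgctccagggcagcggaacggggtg
Atp5g1: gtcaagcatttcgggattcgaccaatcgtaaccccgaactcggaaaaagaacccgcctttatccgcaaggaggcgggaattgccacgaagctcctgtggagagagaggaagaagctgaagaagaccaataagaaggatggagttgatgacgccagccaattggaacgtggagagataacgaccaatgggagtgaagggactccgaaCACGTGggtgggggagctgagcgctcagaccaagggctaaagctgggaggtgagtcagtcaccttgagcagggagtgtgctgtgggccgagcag
Uqcrh: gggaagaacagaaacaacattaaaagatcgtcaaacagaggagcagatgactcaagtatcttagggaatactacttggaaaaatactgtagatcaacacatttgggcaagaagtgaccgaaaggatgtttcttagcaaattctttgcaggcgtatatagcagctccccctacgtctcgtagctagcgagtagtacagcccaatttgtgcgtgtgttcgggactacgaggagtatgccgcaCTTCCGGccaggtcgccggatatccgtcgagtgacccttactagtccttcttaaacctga
Cox7a2l: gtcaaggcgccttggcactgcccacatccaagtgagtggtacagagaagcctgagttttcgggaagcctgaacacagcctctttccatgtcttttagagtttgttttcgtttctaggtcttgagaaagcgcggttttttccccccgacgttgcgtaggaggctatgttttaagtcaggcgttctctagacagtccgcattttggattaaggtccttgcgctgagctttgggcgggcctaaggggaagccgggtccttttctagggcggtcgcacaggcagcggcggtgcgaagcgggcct

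Promoters were found for 73 of the 85 members, of which 64 are structural subunits. NRF1 matches were in 12.5% of the 64, beside 4.12% of 8820 promoters of genes in either table and 1.91% of all 27025 promoters. YY1 matches were in 14.1%, beside 4.86% and 2.88%, ETS matches in 23.4%, beside 19.2% and 9.12%, and E-boxes in 9.38%, beside 10.5% and 7.24%. By complex, 7 of the 9 YY1 matches were in the 31 complex I promoters and 4 of the 6 E-boxes in the 14 of complex V. NRF1 matches were in 2, 0, 2, 1 and 3 promoters of complexes I to V, and ETS matches in 4, 2, 2, 3 and 4. Both a gene that rose (Uqcr11) and one that fell (Uqcrh) hold an ETS match, and the promoters of Ndufa12, Ndufab1 and Atp5b hold none of the 4. A match is a run of letters, not a measured site.

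Does PI3K p110δ inhibition change these genes during activation? By limma no member passed in either direction, with the fold limit or without it. The background was 3.04% of all 11262 genes higher and 2.1% lower with the fold limit, and 9.35% higher and 8.19% lower without it. With libraries scaled to equal summed FPKM, 70.8% of the calls over all genes were in the higher direction, beside 53.3% as deposited. At an unadjusted p under 0.05, 1 member was higher (Ndufb11) and 7 were lower (Ndufa12, Ndufa8, Uqcrb, Cox5b, Cox8a, Cox7c and Atp5l), or 1.2% and 8.43% of members, both below the 16.1% and 15.4% of all genes at that limit. The median log2 fold change of the members was -0.03, beside -0.0076 for all genes, with a range of -0.32 to 0.33.

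The intervals of these differences were narrow. For all 83 members the 95% interval of the fold change lay within 2-fold in either direction, and for 76 within 1.5-fold. The widest reach belonged to Atp5e, at 112, 201 and 223 FPKM in the TCR libraries and 215, 219 and 214 with PI3Kdi. The PI3Kdi values were close together and TCR replicate 1 alone was low, giving 0.33 with a 95% interval up to 0.98. Of all 11262 genes 5733 had a negative fold change, and of the 83 members 51. The ratio of complex IV sums with PI3Kdi to those of TCR alone was 0.913, and 0.966 with libraries scaled to equal summed FPKM. In complex IV 9 of 12 genes were negative, with a median of -0.12, and none passed. Cox5b, a matrix-side subunit of complex IV, came nearest, at 262, 231 and 244 FPKM without and 211, 197 and 205 with PI3Kdi. All 3 PI3Kdi values were under the TCR ones (-0.26 ± 0.09 SE, adjusted p = 0.0554). Atp5l, subunit g of complex V, had the lowest value in all (-0.32 ± 0.13 SE, adjusted p = 0.122), with 63.4% of its read-length stretches shared with other annotated genes. Ndufa12 (-0.31 ± 0.12 SE, adjusted p = 0.0899) had the lowest and Ndufb11 (0.28 ± 0.11 SE, adjusted p = 0.0901) the highest value of complex I.

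Without naïve replicate 3 and TCR replicate 1, 5 members passed without the fold limit and none with it. Ndufaf4 (-0.33, adjusted p = 0.0233), Cox7a2 (-0.35, adjusted p = 0.0065) and Cox7c (-0.25, adjusted p = 0.0473) were then lower with PI3Kdi, and Atp5sl (0.38, adjusted p = 0.0206) and Ndufv3 (0.29, adjusted p = 0.0313) higher. The TCR group then holds 2 libraries. The calls over all genes were then 1189 higher and 1363 lower, against 1053 and 922 with all libraries. In the fit without the 2 libraries 10.6% of all genes were higher and 12.1% lower, beside 2.41% and 3.61% of members. Fitting only the TCR and PI3Kdi groups let Cox7c pass (-0.23, adjusted p = 0.0489), and equal summed FPKM let Ndufb11 pass (0.36, adjusted p = 0.0243).

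Which subunit genes change when CTL lose IL-2? With the fold limit 13 of 85 members were lower without IL-2, against 13.9% of all 11211 genes, and 1 was higher, against 14.3%. Without the fold limit 59 were lower, against 36.6%, and 4 were higher, against 35.2%. The share lower by over 2-fold (15.3%) was near the background of that direction, and the share higher by over 2-fold (1.18%) was below it. Without the fold limit the share that fell (69.4%) was above the background and the share that rose (4.71%) below it. The median log2 fold change was -0.48, beside -0.0009 for all genes. Scaling to equal summed FPKM moved the median of all genes by 0.12 and that of the members to -0.35, which is -0.48 relative to all genes.

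In complex I, 28 of 39 genes fell and 1 rose. Ndufa12 was at 86.4, 118 and 117 FPKM in the CTL libraries with IL-2 and 28.8, 29.2 and 28.3 in those without. The libraries without IL-2 were nearly alike and far below the others, and the log2 fold change of -1.88 ± 0.12 SE, adjusted p = 1.1e-06 was the largest fall of all members. Ndufab1 was at 34.6, 31.9 and 27.8 with and 11.1, 11.7 and 9.43 without IL-2 (-1.54 ± 0.11 SE, adjusted p = 2.7e-06). Of the 7 core subunits 4 fell. Ndufv2, another core subunit by the NADH site, did not pass (-0.21 ± 0.10 SE, adjusted p = 0.068) and passed as lower with the replicate block (adjusted p = 0.0437). Ndufv3 fell by a small amount (-0.20 ± 0.08 SE, adjusted p = 0.0445) that did not pass with the replicate block (adjusted p = 0.0622), median scaling (0.106), equal summed FPKM (0.355) or no intensity trend (0.0826), nor without replicate 2 (0.307) or replicate 3 (0.162). Ndufa6 was higher in each library without IL-2, at 110.0, 119.8 and 125 FPKM against 72.1, 86.2 and 68.7 (0.65 ± 0.10 SE, adjusted p = 2.6e-04). Ndufb11 was at 0.12 ± 0.07 SE, adjusted p = 0.146.

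Ndufb7, an accessory subunit of the membrane arm and among the most abundant of complex I in CTL with IL-2, was at 151, 161 and 149.7 FPKM with IL-2 and 95.5, 97.3 and 85.7 without (-0.73 ± 0.08 SE, adjusted p = 2.7e-05).

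The assembly factors of complex I also differed among themselves. Ndufaf4 was at 8.48, 7.32 and 8.07 FPKM with IL-2 and 2.4, 2.63 and 1.91 without (-1.75 ± 0.15 SE, adjusted p = 5.5e-06), and Ndufaf2 at 12.6, 14.9 and 13.2 and 6.6, 6.05 and 5.84 (-1.12 ± 0.11 SE, adjusted p = 1.3e-05). In both the groups lay apart. Ndufaf1 (-0.04 ± 0.11 SE, adjusted p = 0.73) and Ndufaf3 (-0.23 ± 0.12 SE, adjusted p = 0.101) did not pass.

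In complex II 4 of 6 genes fell. Sdhb was at 140.5, 151 and 157 FPKM with IL-2 and 83, 77.6 and 72.2 without, with no overlap (-0.94 ± 0.08 SE, adjusted p = 6.6e-06). Sdhc fell by less (-0.35 ± 0.07 SE, adjusted p = 0.00191). Sdhd, which had risen most after TCR activation, was at 111, 96.5 and 100.5 with IL-2 and 91.6, 88.3 and 86.6 without. The groups lay apart by a few FPKM, and the call (log2 fold change -0.21 ± 0.08 SE, adjusted p = 0.0358) was lost with median scaling (adjusted p = 0.0856), equal summed FPKM (0.421), no intensity trend (0.0735) and without any one replicate (0.0769 to 0.115). Sdhaf1 fell (-0.68 ± 0.17 SE, adjusted p = 0.00631), and did not pass without replicate 2 (-0.41, adjusted p = 0.0785), while Sdha and Sdhaf2 did not pass (-0.13 ± 0.07 SE, adjusted p = 0.115 and 0.07 ± 0.08 SE, adjusted p = 0.444).

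In complex III 5 of 8 genes fell and Uqcrh rose. Uqcrq was at 169.9, 172 and 162 FPKM with IL-2 and 70.8, 62.4 and 60.0 without (-1.38 ± 0.08 SE, adjusted p = 8.6e-07), and Uqcr11 at 121, 139 and 119 and 60.6, 58 and 53.1 (-1.14 ± 0.09 SE, adjusted p = 3.4e-06). Both lay more than 2-fold lower with groups far apart. Uqcrfs1, at 97.7, 76.5 and 72.8 with and 78.7, 77.4 and 74.7 without IL-2, overlapped between groups and did not pass (-0.09 ± 0.11 SE, adjusted p = 0.496), and neither did Uqcrc2 (-0.07 ± 0.07 SE, adjusted p = 0.388). Uqcrh was higher in all libraries without IL-2, at 349.9, 323 and 362 FPKM against 256, 258 and 262 (0.41 ± 0.08 SE, adjusted p = 8.6e-04).

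In complex IV 10 of 14 genes fell and 1 rose. Cox6a1 was at 301, 443 and 397 FPKM with IL-2 and 169, 167 and 142 without, and replicate 1 was the lowest of the IL-2 libraries (-1.24 ± 0.14 SE, adjusted p = 3.4e-05). Cox5b fell too (-0.86 ± 0.10 SE, adjusted p = 3.9e-05). Cox4i1, the most abundant of the complex without IL-2, was at 414, 367 and 339 and 426, 398 and 421 FPKM. It did not pass (0.16 ± 0.09 SE, adjusted p = 0.149) and passed as higher with equal summed FPKM (0.28, adjusted p = 0.0271) and without replicate 1 (0.22, adjusted p = 0.0496). Cox5a (-0.47 ± 0.16 SE, adjusted p = 0.0238) and Ndufa4 (-0.40 ± 0.16 SE, adjusted p = 0.0461) fell, and both calls were lost with equal summed FPKM, no intensity trend and without replicate 2, and that of Ndufa4 also with median scaling. Cox7a2l, the gene with the largest fall after TCR activation, was at 99.8, 126 and 109 FPKM with IL-2 and 250.2, 246 and 274 without. This was the only member more than 2-fold higher, with all libraries without IL-2 above those with it (1.21 ± 0.10 SE, adjusted p = 4.6e-06).

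Of the 15 subunits of complex V 11 fell and none rose, while Atp5sl, grouped with them by its symbol, rose. Atp5b was at 769.8, 741 and 778 FPKM with IL-2 and 342, 325 and 306 without (-1.24 ± 0.08 SE, adjusted p = 1.2e-06), with every library without IL-2 below those with it. The c subunit genes parted here. Atp5g1 was at 129, 148 and 135 and then 42.4, 46 and 35.9 FPKM (-1.73 ± 0.10 SE, adjusted p = 8.2e-07), Atp5g3 at 369, 321 and 318 and 196, 178 and 166 (-0.90 ± 0.09 SE, adjusted p = 2.2e-05), and Atp5g2 at 93.3, 107 and 95.6 and 89, 85.2 and 90.2 (-0.16 ± 0.08 SE, adjusted p = 0.0931). Thus Atp5g1 and Atp5g3 fell with groups far apart, and Atp5g2, with groups a few FPKM apart, did not pass. The difference between the genes was not tested. Atp5e (0.12 ± 0.17 SE, adjusted p = 0.523) and Atp5h (0.05 ± 0.09 SE, adjusted p = 0.65) had the highest values of the subunits. Atp5sl was higher in each library without IL-2, at 17.9, 18.9 and 21.1 FPKM against 9.9, 13.3 and 10.2 (0.80 ± 0.13 SE, adjusted p = 3.8e-04).

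**Figure D4:**
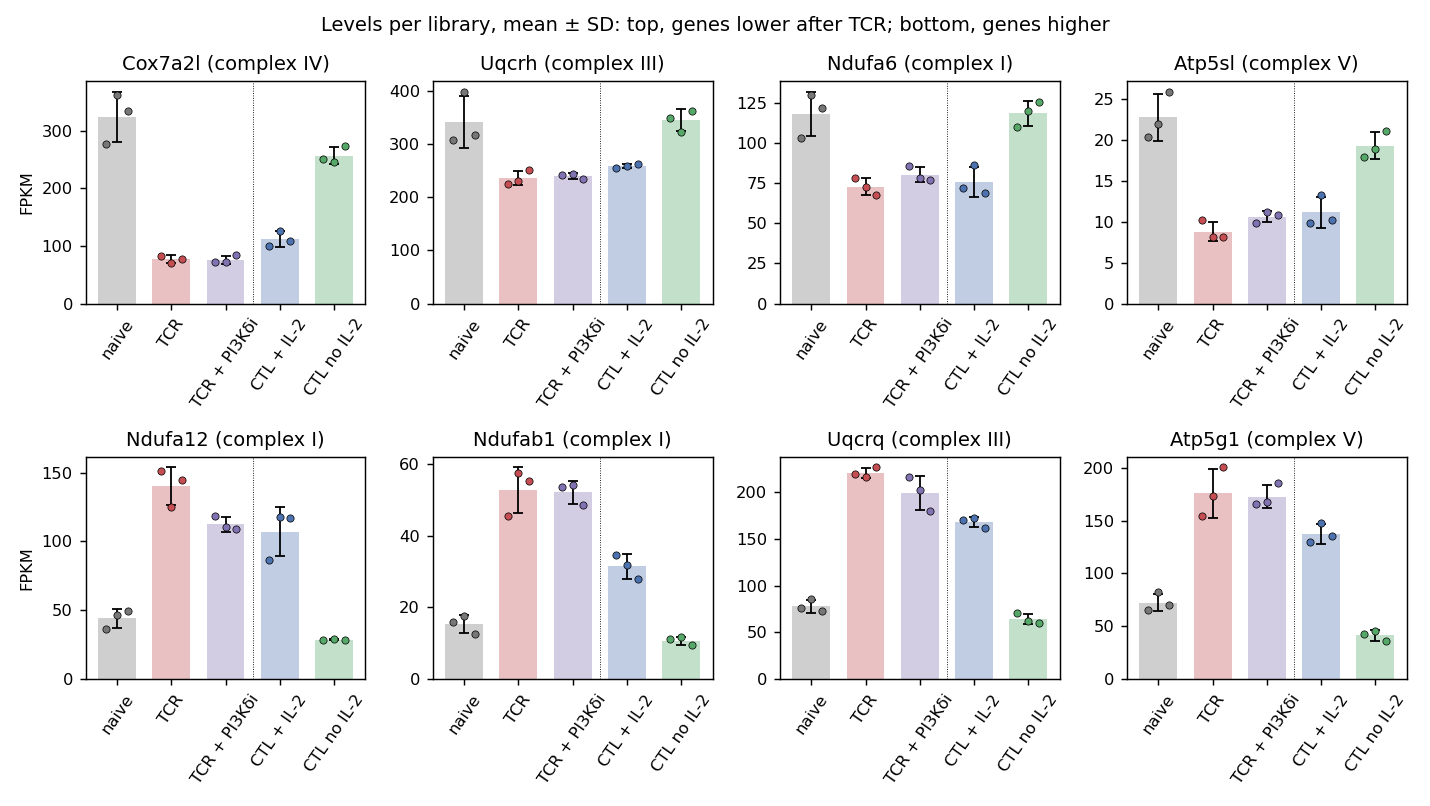
FPKM of 8 genes in each of the 15 libraries, with bars at the group mean and error bars of 1 SD (n = 3), and a dotted line between the 2 separately normalised tables. In the top row (Cox7a2l, Uqcrh, Ndufa6, Atp5sl) naïve cells and CTL without IL-2 are higher than the other group of their comparison, and in the bottom row (Ndufa12, Ndufab1, Uqcrq, Atp5g1) they are lower.

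Activation and IL-2 withdrawal share no library, so their values can be set side by side. Over the 83 members in both tables the log2 fold changes had a Pearson r of -0.74 and a Spearman rho of -0.66. All 10637 genes of both tables had an r of -0.64 and a rho of -0.69, so an inverse relation was also present over all genes. These are descriptions across genes, which share libraries and are not independent. Of the 56 members that rose after TCR activation, 48 were lower without IL-2 (85.7%) and none was higher, beside 70.2% of the genes in both tables that rose. The 48 are 82.8% of the 58 members of both tables that were lower without IL-2, beside 76.3% over all genes. Among all 83 members 56 rose and 58 were lower without IL-2, against 4265 and 3924 of the 10637 genes. These base rates differ, and whether the changes were linked more closely among members than over all genes was not tested. All 4 members that were higher without IL-2, Cox7a2l, Atp5sl, Ndufa6 and Uqcrh, had fallen after activation, as 76.3% of all such genes had. They are 44.4% of the 9 members that fell, beside 65.9% over all genes. In this direction too the base rates differ, with 4330 of the 10637 genes lower after activation and 3738 higher without IL-2. Without naïve replicate 3 and TCR replicate 1, 50 of 59 members that rose were lower without IL-2 (84.7%), beside 70.6% over all genes.

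**Figure D5:**
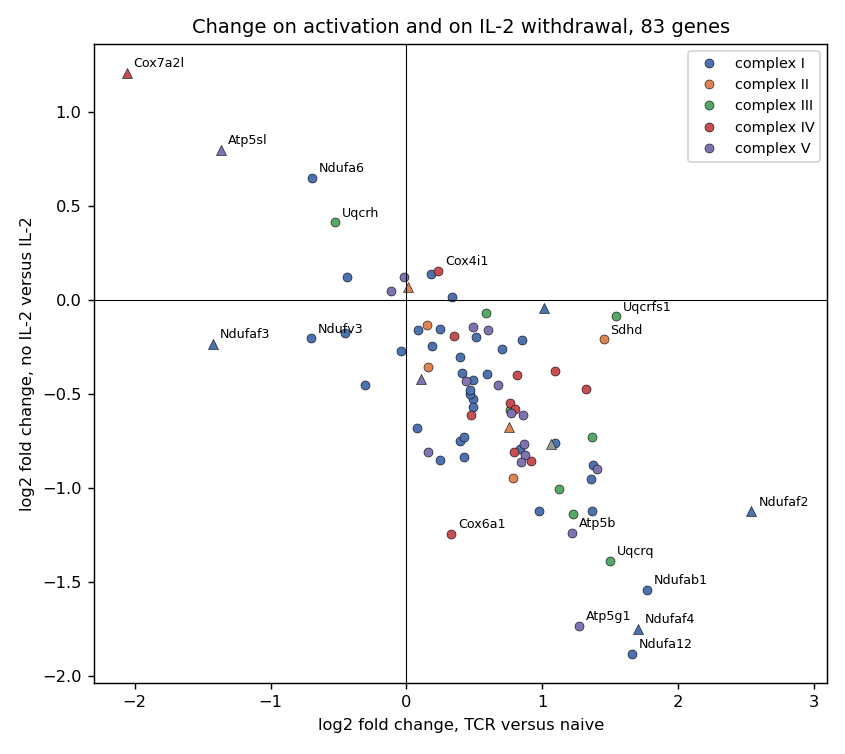
Log2 fold change after TCR activation (horizontal) against that without IL-2 (vertical) for 83 genes, coloured by complex, with triangles for rows that are no structural subunit and Cox4nb in grey. The points fall from Cox7a2l at the upper left to Ndufa12 and Ndufaf4 at the lower right, and Uqcrfs1 and Sdhd lie near 0 on the vertical axis.

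Several subunits of complex IV exist as forms for different tissues. Of the sets looked at, the common forms Cox4i1, Cox6a1, Cox6b1, Cox7a2 and Cox8a were present in both tables. The muscle form Cox7a1 and the testis form Cox6b2 passed the authors' filter in the CTL table alone. Cox7a1 was at 3.44, 4.83 and 5.38 FPKM in CTL with IL-2 and 1.56, 1.61 and 0.84 without, and fell (-1.72 ± 0.26 SE, adjusted p = 2.4e-04), though its level was small beside the 139, 121 and 122 FPKM of Cox7a2 in the same libraries with IL-2. Cox6b2 was at 4.29, 5.08 and 2.04 and 6.21, 5.14 and 3.54 FPKM, with overlapping groups (0.44 ± 0.32 SE, adjusted p = 0.243). With the replicate block it passed as higher (adjusted p = 0.0346). Rows for Cox4i2, Cox6a2, Cox8b, Cox8c and Ndufa4l2 were not in either table used here.

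Other genes of the pathway were taken from lists with different symbols. Their counts are at an adjusted p under 0.05 and stand against the shares of all genes given above, 40.9% higher and 39.8% lower after TCR activation, 9.35% and 8.19% with PI3Kdi and 35.2% and 36.6% without IL-2. Among 5 subunits and associated proteins outside the prefixes, 3 rose after TCR activation and 4 fell without IL-2. Cyc1, cytochrome c1 of complex III, was at 79.4 ± 8.01 FPKM (SD, n = 3) in naïve cells and 191 ± 21.1 after activation (1.26 ± 0.10 SE, adjusted p = 3.5e-07), and at 110.3 ± 3.13 with and 45.9 ± 2.99 without IL-2 (-1.26 ± 0.08 SE, adjusted p = 9.0e-07). The largest rise of this list was that of Atpif1, the inhibitor of ATP hydrolysis by complex V (1.43 ± 0.10 SE, adjusted p = 1.7e-07), and the largest fall without IL-2 that of Usmg5, a small subunit of complex V (-1.28 ± 0.09 SE, adjusted p = 1.7e-06). All 7 genes of a list of cytochrome c and of mitochondrial carriers and channels for ADP, ATP and phosphate rose after TCR activation and all 7 fell without IL-2. Cycs, cytochrome c itself, went from 10.3 ± 0.725 to 56.4 ± 2.71 FPKM (2.44 ± 0.09 SE, adjusted p = 6.4e-10). It was at 40.1 ± 3.02 with and 8.33 ± 1.07 without IL-2 (-2.26 ± 0.11 SE, adjusted p = 3.9e-07). With PI3Kdi it was lower, at 41.3 ± 2.75 FPKM (-0.45 ± 0.09 SE, adjusted p = 0.0058), one of 2 genes of the list that passed, with the channel Vdac2 (-0.37 ± 0.09 SE, adjusted p = 0.017). Without naïve replicate 3 and TCR replicate 1, 4 of the 7 were lower with PI3Kdi, beside 12.1% of all genes, and all 7 rose after TCR activation. In that fit 4 of the 5 subunits outside the prefixes rose after TCR activation, and with PI3Kdi 1 was higher and 1 lower.

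Of 40 assembly factors listed outside the prefixes 25 were in the tables. After TCR activation 16 rose and 4 fell. Cox17, the copper chaperone of complex IV, rose most, from 50.3 ± 5.67 to 189 ± 17.2 FPKM (1.91 ± 0.12 SE, adjusted p = 3.5e-08). With PI3Kdi 2 of the 25 fell, or 8%, near the background of 8.19%, and Cox17 was one of them, at 114 ± 14.4 FPKM (-0.73 ± 0.12 SE, adjusted p = 0.00161), with Cox15 the other (-0.34 ± 0.10 SE, adjusted p = 0.0482). Surf1, an assembly factor of complex IV, fell after activation, from 33.4 ± 0.751 to 17.2 ± 0.19 FPKM (-0.95 ± 0.08 SE, adjusted p = 6.8e-07), and was higher without IL-2, at 72 ± 4.3 against 30.4 ± 3.22 (1.25 ± 0.10 SE, adjusted p = 3.2e-06). Without IL-2, 11 of the 25 fell (44%, near the background) and 4 rose (16%), and Ttc19 of complex III fell most (-1.21 ± 0.15 SE, adjusted p = 6.7e-05). Without naïve replicate 3 and TCR replicate 1, 18 rose and 4 fell after TCR activation, and 5 fell with PI3Kdi (20%, beside 12.1% of all genes).

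For upkeep and transcription of mitochondrial DNA 10 of 18 listed symbols were in the tables. After TCR activation 7 rose and 2 fell, from 2.22 ± 0.09 SE, adjusted p = 1.6e-09 for the topoisomerase Top1mt to -1.25 ± 0.20 SE, adjusted p = 1.3e-04 for Polg2, the accessory subunit of the mitochondrial DNA polymerase. The same genes were the extremes without IL-2, when 6 fell and 2 rose, at -1.80 ± 0.21 SE, adjusted p = 4.4e-05 and 1.36 ± 0.15 SE, adjusted p = 2.6e-05. With PI3Kdi 1 gene of 10 passed, which is near the background, the single-strand binding protein Ssbp1 (-0.32 ± 0.08 SE, adjusted p = 0.0242). Without naïve replicate 3 and TCR replicate 1, 6 rose and 2 fell after TCR activation, and 1 fell with PI3Kdi.

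Of 14 listed regulators of these genes 13 were present. After TCR activation 7 rose and 2 fell, led by Myc, from 70.6 ± 14.6 to 349.9 ± 53.2 FPKM (2.31 ± 0.14 SE, adjusted p = 4.6e-08), with Gabpb2, a partner of the ETS factor Gabpa, falling most (-0.67 ± 0.10 SE, adjusted p = 7.7e-05). Pprc1, a coactivator of the PGC-1 family, rose as well (1.20 ± 0.14 SE, adjusted p = 1.1e-05), and Nrf1, the factor whose motif was searched above, did not pass (-0.01 ± 0.10 SE, adjusted p = 0.921). Without IL-2 10 fell and 2 rose, with Myc at 42.4 ± 3.19 against 214 ± 49.3 FPKM (-2.31 ± 0.16 SE, adjusted p = 1.6e-06) and Gabpb2 rising most (0.56 ± 0.09 SE, adjusted p = 4.8e-04). With PI3Kdi Hif1a, the oxygen-regulated factor, was higher (1.14 ± 0.19 SE, adjusted p = 0.00227) and Nrf1 lower (-0.39 ± 0.10 SE, adjusted p = 0.0251), and Nfe2l2 and Gabpa also passed, in opposite directions. The counts after TCR activation and with PI3Kdi were the same without naïve replicate 3 and TCR replicate 1.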

How the data were processed

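The authors deposited 2 tables of FPKM values per gene, 1 of 9 libraries (3 naïve, 3 TCR, 3 PI3Kdi) and 1 of 6 CTL libraries (3 with and 3 without IL-2). Per the methods, poly(A) RNA in stranded libraries was aligned to mm10 with STAR 2.5.2b, counted with Subread 1.5.1, filtered for low counts, scaled by TMM and divided by exon length. The methods do not name the CTL table, for which the same steps were assumed. Whether counting used strand is not given in the sources used here, so reads of overlapping antisense genes may be mixed in. Genes removed by the filter are missing from the tables, and read totals per library are unknown, so no counting interval was computed. Values are rounded to 2 decimals. Blank cells, 46 to 252 per library of the first table, were read as 0. All columns were matched to a sample.

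limma 3.58.1 in R 4.3.3 was fitted to log2(FPKM + 0.1) with an intensity trend, over all genes of a table, with Benjamini-Hochberg adjustment. The fit of the first table held all 9 libraries and that of the second all 6, without a replicate block. Fold changes are on the log2(FPKM + 0.1) scale, which understates those of low genes. A gene was changed at an adjusted p under 0.05 and a fold above 2 or below 0.5, the rule of the study, and counts at an adjusted p under 0.05 alone are given beside it. The test was checked on simulated data with independent noise in each gene and library and planted changes all beyond 2-fold. This does not cover smaller changes or deviations that genes share within a library. Members, gene lists, tests and named genes were chosen with earlier results of these data known. The genes named were, per complex and comparison, the 2 highest and 2 lowest by fitted fold change, the 2 most abundant per complex, those changed with PI3Kdi or against the rest, tissue paralogues, matched assembly factors, and the largest rise and fall of each list. Further genes, such as Ndufc1, Ndufv2, Ndufa13 and Atp5g2, were named after their values were seen.

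For pairing, the methods of the first table pool 3 mice per biological replicate and divide each pool among the conditions. The sample titles carry a biological replicate number. A number may thus mark a pool in that table, though no label says so outright. Over all genes same-numbered TCR and PI3Kdi libraries had deviations with an r of 0.20 to 0.51. Those of CTL had 0.12 to 0.26 and those of naïve and TCR -0.18 to 0.23. Differently numbered libraries had -0.45 to 0.19 for TCR and PI3Kdi and -0.20 to 0.09 for CTL. Deviations from a group mean cancel out within the group, so these values are not independent of the same-numbered ones. Over the subunits same-numbered TCR and PI3Kdi libraries had -0.03, -0.23 and 0.25, and CTL 0.25, 0.22 and 0.22. The numbers may thus pair libraries in the PI3Kdi and IL-2 comparisons, but the main tests and intervals use no pairing. The replicate block of the first table also held the naïve libraries, so it is no paired test of TCR and PI3Kdi alone. Promoters were RefSeq windows of GRCm38.p6, and the share of 75-base stretches that a transcript has in common with other genes was computed from GENCODE M21. Alternatives were another pseudocount, a filter at a mean of 1 FPKM, other scalings, a replicate block, no trend, only the groups compared, a 1.5-fold limit, structural subunits alone, each replicate left out, and, added after seeing the data, naïve replicate 3 and TCR replicate 1 left out. Python 3.11.15 with pandas 2.3.3, numpy 2.4.6 and matplotlib 3.10.9 was used. One gene of the rule is not reported here by name.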

Additional observations from a re-analysis of the deposited data

How the results depend on the processing

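Across the named genes and the alternatives run, no value changed direction past the test. For activation 564 gene-by-setting values kept their side of the threshold, 9 passed only under the alternative and 3 were lost. For PI3Kdi these were 569, 7 and 0, and for IL-2 withdrawal 473, 7 and 20. With the replicate block, activation gave 56 members higher and 9 lower, PI3Kdi 0 and 0, and IL-2 withdrawal 5 and 59. The block let Cox6b2 (adjusted p = 0.0346) and Ndufv2 (0.0437) pass in limma without IL-2 and lost Ndufv3 (0.0622), and it changed no other call of a member.

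A 1.5-fold limit in place of 2-fold gave 41 members higher and 5 lower after activation, and 3 higher and 36 lower without IL-2. The share of all genes past a 1.5-fold limit is not given here, so these counts have no background beside them. For PI3Kdi, at an adjusted p under 0.05 alone, equal summed FPKM gave 1 member higher, beside 1337 higher and 551 lower over all genes. Fitting only the groups compared gave 1 member lower. Leaving out naïve replicate 3 and TCR replicate 1 gave 2 members higher and 3 lower, beside 10.6% and 12.1% of all genes. Equal summed FPKM gave 7 members higher and 51 lower without IL-2, and 1 and 9 past the fold limit, while over all genes it gave 4576 higher and 3525 lower, against 3948 and 4108 as deposited. The median without IL-2 was -0.43 with median scaling and -0.35 with equal summed FPKM. Ratios of summed FPKM with equal summed FPKM were 1.04 and 0.966 for complexes I and IV with PI3Kdi, against 0.983 and 0.913 as deposited, so that of complex I crossed 1, and 0.812, 0.817, 0.837, 0.835 and 0.694 for complexes I to V without IL-2. With structural subunits alone complex IV had ratios of 1.56 after activation and 0.701 without IL-2, which then leave out Cox7a2l. The other causes were not tested. Without read totals, the depth behind low values could not be assessed.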
